A study of Mus musculus with 18 samples.

Results

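The 10 genes described here were 4 growth factor receptors (*Egfr*, *Fgfr1*, *Fgfr2* and *Fgfr3*) and 6 genes that ERK signalling is known to switch on (*Spry1*, *Spry2*, *Spry4*, *Dusp6*, *Etv4* and *Etv5*). They were taken by name, 10 of the 54838 genes of the count table, and all 10 were among the 20067 genes that passed the filter on low counts. Total RNA was sequenced from mouse neural precursors in 6 conditions with 3 libraries each, 18 in all. All cells were wild type C57BL/6J, grown as neurospheres (NSPs) from neural stem cells of the ventricular zone of single brains at embryonic day 14. NSPs of the first condition were kept proliferating in a medium with 1% B27 and 20 ng/ml EGF, in which no FGF was listed. For the other conditions the NSPs were plated on poly-L-ornithine in DMEM with 10% FBS to become astrocytes, for 24 h, 72 h or 1 week untreated, or for 24 h or 72 h with TNF at 50 ng/ml. EGF and B27 were thus taken away, serum was added, the base medium was changed and the cells were attached at the same step. The effects of these changes cannot be told apart in any comparison with NSPs. The paper states in general that its data come from at least 3 independent biological experiments, unless marked otherwise. The labels do not say which replicates came from separate brains, so the p-values measure the spread between these libraries, which may be technical.

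EGF and FGF bind receptor tyrosine kinases at the cell surface, which pass the signal through RAS, RAF and MEK to the kinase ERK. ERK in turn raises the transcription of proteins that hold the pathway back: the Sprouty proteins (*Spry1*, *Spry2*, *Spry4*) act between the receptor and RAF, and the phosphatase encoded by *Dusp6* removes the activating phosphates from ERK. The ETS transcription factors *Etv4* and *Etv5* are induced in the same way and carry the signal to further genes. EGF and FGF are the growth factors that keep neural stem cells dividing in culture, and *Fgfr3* is known from radial glia and astrocytes of the developing brain.

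To show the sequence context of genes that ERK signalling is known to switch on, the 250 bases before the RefSeq start of *Spry1*, *Spry2* and *Dusp6* are printed with those of *Egfr*, the receptor of the growth factor in the NSP medium. They are read 5′ to 3′ on the strand of the gene (RefSeq, GRCm38.p6), and in each the start was that of the gene in GENCODE M21. Capitals mark GGAA, the core bound by ETS factors, or its reverse complement TTCC.
Egfr, chr11:16751953-16752202, plus strand: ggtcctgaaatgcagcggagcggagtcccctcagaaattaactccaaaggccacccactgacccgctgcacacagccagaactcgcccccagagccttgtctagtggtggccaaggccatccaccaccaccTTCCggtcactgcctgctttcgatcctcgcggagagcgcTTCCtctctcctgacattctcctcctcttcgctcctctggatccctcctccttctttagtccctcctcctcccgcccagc
Spry1, chr3:37639697-37639946, plus strand: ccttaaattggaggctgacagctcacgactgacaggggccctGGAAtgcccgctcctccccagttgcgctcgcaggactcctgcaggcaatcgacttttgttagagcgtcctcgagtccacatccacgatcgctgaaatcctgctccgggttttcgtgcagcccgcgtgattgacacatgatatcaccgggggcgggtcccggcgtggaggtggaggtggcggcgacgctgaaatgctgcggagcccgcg
Spry2, chr14:105896820-105897069, minus strand: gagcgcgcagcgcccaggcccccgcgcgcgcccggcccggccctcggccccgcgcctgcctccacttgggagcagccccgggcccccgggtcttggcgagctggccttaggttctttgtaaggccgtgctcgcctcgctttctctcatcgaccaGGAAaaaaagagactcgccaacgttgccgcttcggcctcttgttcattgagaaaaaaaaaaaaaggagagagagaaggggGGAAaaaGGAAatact
Dusp6, chr10:99262981-99263230, plus strand: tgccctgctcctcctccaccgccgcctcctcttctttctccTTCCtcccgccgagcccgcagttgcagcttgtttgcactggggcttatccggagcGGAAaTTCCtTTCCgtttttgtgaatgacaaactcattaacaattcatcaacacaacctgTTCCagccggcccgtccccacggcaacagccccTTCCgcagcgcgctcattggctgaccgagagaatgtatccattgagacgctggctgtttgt
GGAA on either strand occurred 2 times in the window of *Egfr*, 1 time in that of *Spry1*, 3 times in that of *Spry2* and 6 times in that of *Dusp6*. The RefSeq starts of *Etv5* lay 149 and 1351 bases from its GENCODE start. Their windows are not printed and held 0 and 4 matches of the core. This core was present in 93.4% of the 32851 RefSeq promoter windows of the same length, with a median of 3 matches, so that its presence did not set these genes apart. The longer CCGGAA, which overlaps the core, was found in the window of *Egfr* and in 12.0% of all windows. The AP-1 sequence TGANTCA (6.75% of all windows), TGACG (17.8%) and the CArG box (1.47%) were searched on both strands and were in none of the 9 windows that RefSeq gave for 7 of the 10 genes. A match is a description of letters, and none was tested for binding. Promoter windows of *Fgfr1*, *Spry4* and *Etv4* were not analysed here.

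In GENCODE M21 (GRCm38, the same assembly as mm10) the receptors lay at chr11:16752203-16918158 (*Egfr*), chr8:25513654-25575718 (*Fgfr1*), chr7:130162451-133123350 (*Fgfr2*, minus strand) and chr5:33721674-33737068 (*Fgfr3*). The annotated span of *Fgfr2*, 2960900 bases, takes in many other genes, and its exons overlap those of *Ctbp2* on the same strand (71.1 to 144 CPM over the 18 libraries), so that the counts of *Fgfr2* carry this uncertainty. Exons of *Fgfr1*, *Fgfr3* and *Spry1* overlap weak transcripts on the opposite strand, of which *Gm16159* opposite *Fgfr1* reached 12.5 CPM, and the strand setting of the counting is not given in the sources used here. The feedback genes lay at chr3:37639947-37644598 (*Spry1*), chr14:105891947-105896819 (*Spry2*, minus strand), chr18:38586247-38601415 (*Spry4*, minus strand), chr10:99263231-99267489 (*Dusp6*), chr11:101769742-101785371 (*Etv4*, minus strand) and chr16:22381309-22439719 (*Etv5*, minus strand). *Egfr*, *Spry2*, *Spry4*, *Dusp6*, *Etv4* and *Etv5* shared no exon with another gene.

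The libraries held 12509693 to 22549627 counts, and the lowest count of any member in any library was 36 (*Etv4* at 72 h). In 3 conditions replicate 1 stood apart. Its root mean square difference in log2 CPM (counts scaled to library size) from the other 2 libraries over the tested genes was 0.66 and 0.69 for NSPs, 0.64 and 0.65 for 24 h with TNF, and 0.61 and 0.62 for 72 h with TNF, while the other 2 libraries differed from each other by 0.37, 0.41 and 0.40. Replicate 1 of 72 h differed from its group by 0.50 and 0.63 against 0.41, and was kept. NSP replicate 1 held more *Top2a*, a gene of dividing cells (1180.0 CPM against 611 and 684). *Mki67*, another such gene, lay between 457 and 493 CPM in all 3 NSP libraries. Replicate 1 of 24 h with TNF held more of the astrocyte filament gene *Gfap* (1871 CPM against 463 and 596) and less *Acta2*, an actin of contractile cells (90.3 CPM against 527 and 493), and replicate 1 of 72 h with TNF likewise (*Gfap* 1022 CPM against 217 and 229, *Acta2* 49.2 CPM against 186 and 202). All 6 TNF libraries carried the mark of the treatment: *Nfkbia*, an NF-κB target, lay between 135 and 161 CPM in them and between 16.04 and 30.4 CPM in the other 12. Results that rest on these 3 libraries are given with and without them, and the part of their makeup in the results was not tested. The authors gave a wide range of RNA quality numbers without saying which libraries were low. The part of RNA quality was not tested either. The cells matched their labels in part. *Mki67* fell from 457 to 493 CPM in NSPs to 1.35 to 1.44 CPM at 72 h, *Gfap* rose from 11.6 to 37.3 CPM to between 1855 and 3172 CPM at 72 h, and at 1 week *Gfap* stood at 52.7 to 81.6 CPM. The other astrocyte markers did not follow it as a list. Of the 8 tested, 3 were higher and 1 lower at 24 h against NSPs, 2 and 3 at 72 h and 0 and 5 at 1 week. At 72 h *Gfap* and the water channel gene *Aqp4* were higher, and *Aldoc*, *S100b* and *Slc1a3* were lower. The summed level of 6 microglial markers stayed at or below 3.88 CPM in all libraries and that of 4 endothelial markers at or below 1.64 CPM, and *Itgam* and *Cdh5*, defining genes of microglia and endothelium, were at or near 0. Of 6 mesenchymal markers 2 could be tested. *Acta2* rose from between 3.53 and 10.3 CPM in NSPs to between 401 and 494 CPM at 24 h and was higher than in NSPs in all 5 differentiated conditions, and the summed level of the list, 4.38 to 10.98 CPM in NSPs, was 401 to 495 CPM at 24 h, 195 to 292 CPM at 72 h and 325 to 410 CPM at 1 week. *Col3a1*, a collagen gene, was higher than in NSPs at 24 h with TNF (1.20 to 1.72 CPM against 0.329 to 0.508 CPM). *Lum*, of the same list, was at 0 in every library. Against NSPs, 3 of 5 tested oligodendrocyte lineage markers were lower by 24 h, 4 by 72 h and 5 by 1 week, and of 6 stem cell and cell cycle markers 5, 4 and 4, while 1 of the 6, *Prom1*, was higher at 72 h. Of 5 tested neuron markers 1 was lower at 24 h and 4 at both 72 h and 1 week, with none higher and median log2 changes of −0.35, −1.46 and −1.96. These losses, and the rise of *Acta2*, ran beside the falls of the feedback genes, and their part in them was not tested. In bulk libraries fewer cells of a type and less RNA per cell cannot be told apart.

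Levels between genes are compared per length, as CPM per kilobase of exon (RPKM). In proliferating NSPs *Spry2* was the highest member, at 95.8 ± 14.7 RPKM (SD, n = 3), followed by *Egfr* at 84.2 ± 8.15 RPKM. *Etv5* (72.5 ± 15.3 RPKM) and *Dusp6* (72.4 ± 41.1 RPKM) came next, and the means of these 4 genes lay within the spread of *Dusp6*. *Fgfr3* was the leading FGF receptor at 48.0 ± 12.8 RPKM, against 11.3 ± 1.73 RPKM for *Fgfr1* and 6.07 ± 1.26 RPKM for *Fgfr2*. *Etv4* stood at 33.6 ± 1.33, *Spry1* at 28.3 ± 9.45 and *Spry4* at 18.3 ± 8.46 RPKM. At 72 h the order had changed. *Egfr* led at 34.1 ± 1.94 RPKM, *Spry2* and *Fgfr1* followed at 22.4 ± 3.78 and 22.2 ± 3.82 RPKM, and *Spry1* (1.68 ± 0.424 RPKM), *Etv4* (0.933 ± 0.153 RPKM) and *Spry4* (0.594 ± 0.0786 RPKM) closed the list.

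**Figure D1:**
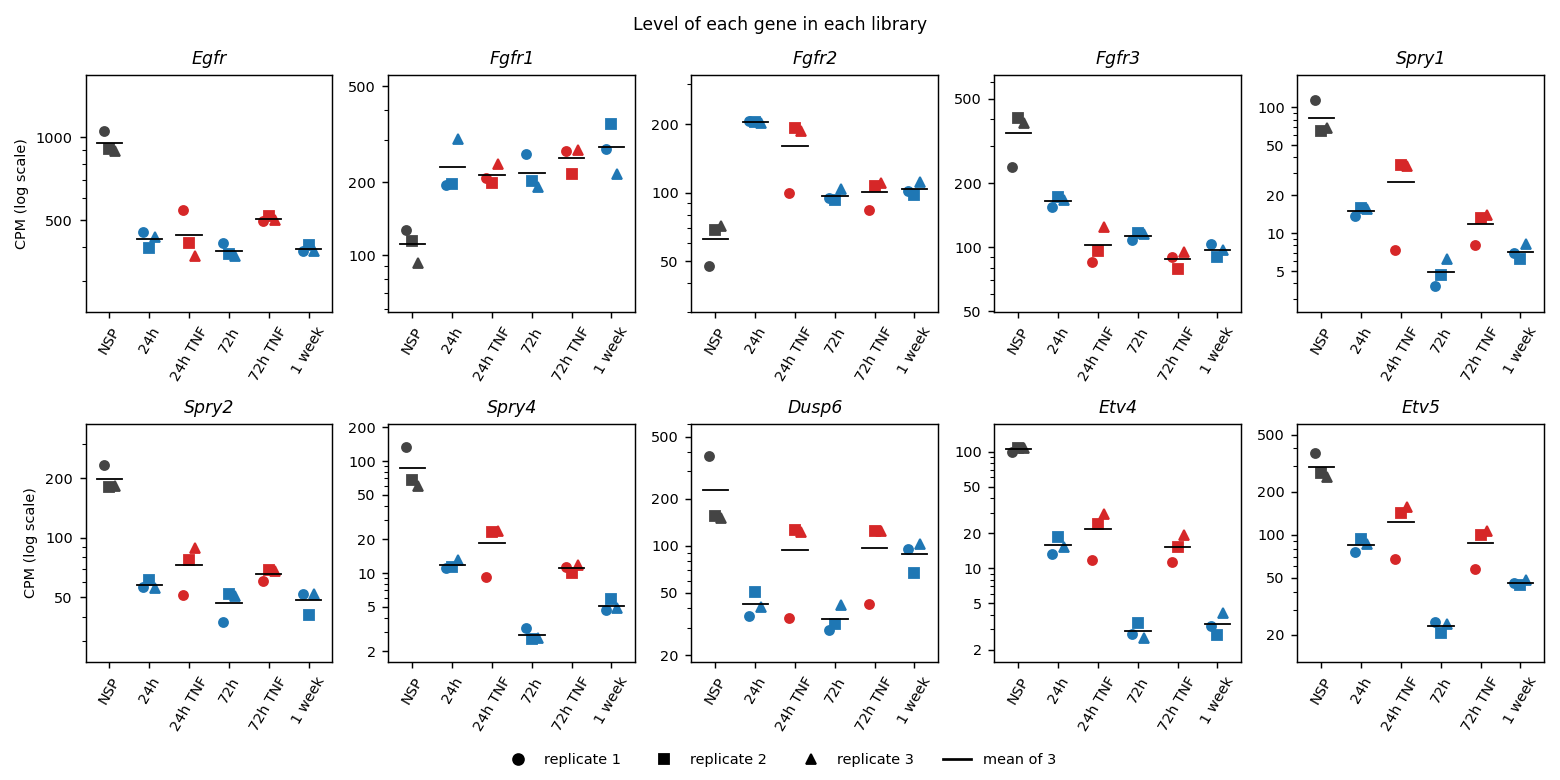
CPM of each of the 10 genes on a log axis in the 18 libraries, by condition, with the symbol giving the replicate number and the bar the mean of 3. The 6 feedback genes were highest in NSPs in every library, and replicate 1 (circles) of 24 h TNF lay below the other 2 libraries for all 6 of them.

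All 6 feedback genes fell when NSPs were moved to differentiation medium, at every time and with or without TNF. *Etv4* measured 99.6, 107 and 106 CPM in the 3 NSP libraries, 13.4, 18.5 and 15.2 CPM at 24 h, 2.72, 3.44 and 2.53 CPM at 72 h and 3.18, 2.69 and 4.16 CPM at 1 week. Its NSP libraries agreed closely, no differentiated library came near them, and the level at 72 h was 2.78% of the NSP level. Against NSPs the fall on the log2 scale was −2.73 ± 0.26 (SE) at 24 h, −5.17 ± 0.30 at 72 h (35.9-fold, adjusted p = 9.24e-11) and −4.98 ± 0.29 at 1 week. *Spry4* measured 133, 68.0 and 60.2 CPM in NSPs, 11.03, 11.3 and 13.04 CPM at 24 h, 3.25, 2.58 and 2.64 CPM at 72 h and 4.64, 5.81 and 4.86 CPM at 1 week. The groups were again apart, and NSP replicate 1 lay highest. The log2 change at 72 h was −4.95 ± 0.35 (31.0-fold, adjusted p = 1.15e-09).

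*Etv5* and *Spry1* followed the same course at a smaller size. *Etv5* measured 369, 272 and 252 CPM in NSPs, 75.8, 93.3 and 86.4 CPM at 24 h, and 24.7, 20.7 and 23.9 CPM at 72 h. Its log2 change was −1.80 ± 0.25 at 24 h and −3.68 ± 0.27 at 72 h, and its level at 1 week was 15.5% of that in NSPs. *Spry1* measured 114, 64.6 and 68.2 CPM in NSPs and 3.78, 4.66 and 6.22 CPM at 72 h, a log2 change of −4.06 ± 0.43, with 6.93, 6.19 and 8.24 CPM at 1 week. *Spry2* kept more of its level: it measured 235, 180.3 and 184 CPM in NSPs, 56.7, 61.6 and 55.8 CPM at 24 h and 37.8, 52.1 and 50.6 CPM at 72 h, so that 23.4% of the NSP level remained at 72 h.

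*Dusp6*, the ERK phosphatase, measured 375, 155 and 149.8 CPM in NSPs, 35.8, 51.0 and 40.9 CPM at 24 h, 29.0, 31.6 and 41.7 CPM at 72 h and 95.9, 67.3 and 102 CPM at 1 week. NSP replicate 1 held more than any other library, and the 1 week libraries lay above all those of 24 h and 72 h. The log2 change against NSPs was −2.41 ± 0.45 at 24 h (adjusted p = 2.48e-04), −2.73 ± 0.46 at 72 h and −1.36 ± 0.44 at 1 week (adjusted p = 0.0123). Without the 3 libraries that stood apart the last of these was −0.79 ± 0.17 and still called (adjusted p = 5.97e-04). Without NSP replicate 1 alone it was −0.79 ± 0.43 and not called (adjusted p = 0.124), and without 1 week replicate 2 it was −1.19 ± 0.50 (adjusted p = 0.0560). With TNF the *Dusp6* calls against NSPs depended on the same libraries: −1.26 ± 0.43 at 24 h and −1.23 ± 0.43 at 72 h (adjusted p = 0.0200 and 0.0201) became −0.33 ± 0.18 and −0.29 ± 0.18 without the 3 libraries (adjusted p = 0.146 and 0.180).

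The receptors moved in 2 directions. *Egfr*, the EGF receptor, measured 1059.8, 906 and 895 CPM in NSPs, 451, 396 and 432 CPM at 24 h, 412, 376 and 372 CPM at 72 h and 384, 407 and 386 CPM at 1 week. Every differentiated library lay below every NSP library, and the conditions after NSPs overlapped with their neighbours in level. The log2 change was −1.16 ± 0.13 at 24 h (adjusted p = 9.68e-07), −1.30 ± 0.13 at 72 h and −1.28 ± 0.13 at 1 week. *Fgfr3* fell from 239, 406 and 385 CPM in NSPs to 155, 172 and 167 CPM at 24 h and 108, 117 and 116 CPM at 72 h, with log2 changes of −1.06 ± 0.17 and −1.60 ± 0.17, and it measured 104, 89.9 and 97.3 CPM at 1 week (−1.82 ± 0.17). For this gene NSP replicate 1 was the lowest of its group, and without the 3 libraries that stood apart the 72 h change was −1.81 ± 0.11.

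*Fgfr1* and *Fgfr2*, the other two FGF receptors, rose. *Fgfr1* measured 127, 114 and 93.1 CPM in NSPs, 195, 197 and 303 CPM at 24 h and 262, 203 and 191 CPM at 72 h, and was highest at 1 week with 275, 349 and 216 CPM. The 5 differentiated conditions overlapped with each other for this gene and all lay above NSPs. *Fgfr2* measured 47.8, 68.8 and 71.6 CPM in NSPs, 207, 206 and 202 CPM at 24 h, 95.0, 93.4 and 104 CPM at 72 h and 102, 98.3 and 112 CPM at 1 week. It peaked at 24 h, with a log2 change of 1.71 ± 0.20 (3.27-fold, adjusted p = 1.46e-06), and stood at 155% of the NSP level at 72 h (log2 change 0.63 ± 0.20, adjusted p = 0.0102). Without NSP replicate 1 the 72 h value was 0.47 ± 0.20 and missed the threshold (adjusted p = 0.0619), while without all 3 libraries that stood apart it was 0.47 ± 0.09 and was called.

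**Figure D2:**
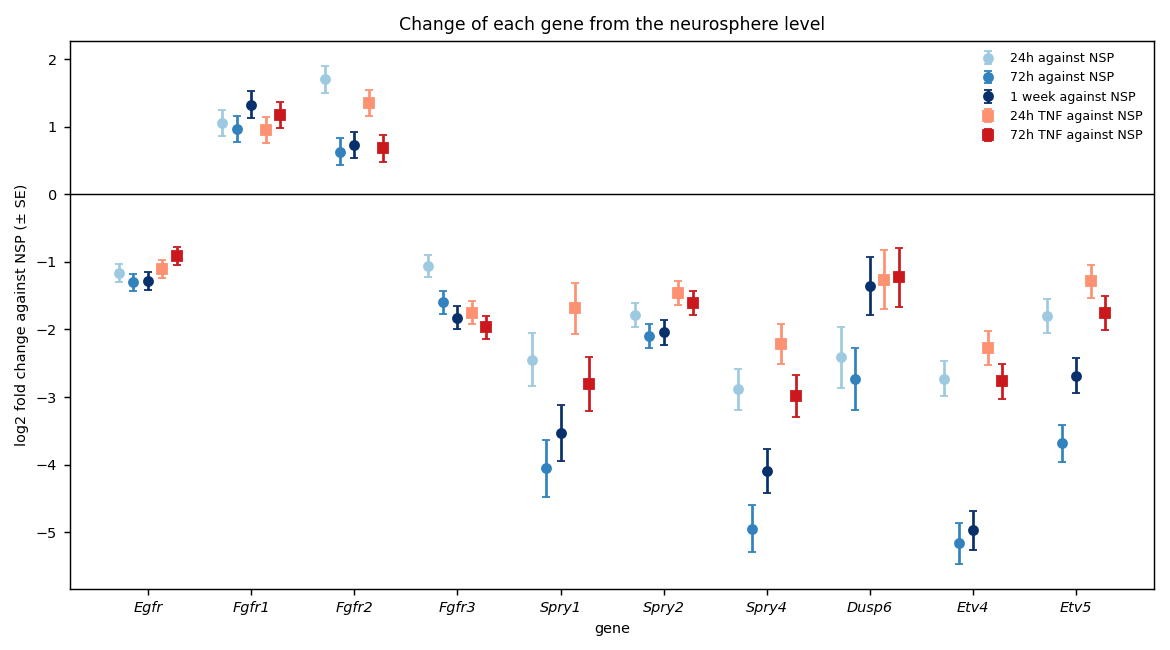
log2 fold change of each gene against NSPs with its SE in the 5 differentiated conditions, circles for untreated and squares for TNF. The 6 feedback genes, Egfr and Fgfr3 lie below 0 in all 5, Fgfr1 and Fgfr2 above 0, and the longest falls are those of Etv4 (−5.17) and Spry4 (−4.95) at 72 h.

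In counts, 2 of the 10 members were called higher and 8 lower in each comparison with NSPs. Calls were common in these comparisons. At 24 h 27.2% of all tested genes were higher and 25.5% lower, at 72 h 28.1% and 27.2%, and at 1 week 29.6% and 29.1%. With TNF the shares were 28.2% higher and 26.3% lower at 24 h, and 31.7% and 30.1% at 72 h. The median log2 change of the 6 feedback genes was −2.43 at 24 h, −3.87 at 72 h and −3.11 at 1 week, beside medians of 0.060, 0.051 and 0.059 over all tested genes, and that of the 4 receptors was −0.0025, −0.33 and −0.27. The counts stayed the same without the 3 libraries that stood apart in the untreated comparisons, and 7 instead of 8 were lower in both TNF comparisons, the lost call being *Dusp6*.

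Since *Fgfr3* fell and *Fgfr1* and *Fgfr2* rose, the makeup of the FGF receptor transcripts shifted. *Fgfr3* made up 65.6, 75.7 and 76.7% of the summed RPKM of the 3 receptors in the NSP libraries and 35.3, 37.6 and 31.8% at 24 h. *Fgfr1* took 25.3, 15.5 and 13.4% in NSPs and 53.3, 61.5 and 47.2% at 1 week. It was the leading FGF receptor in every library there, as at 72 h and in both TNF conditions. *Fgfr2* rose from 8.88 to 9.87% in NSPs to 26.6 to 32.7% at 24 h and stood at 18.1 to 22.0% at 72 h. The sum was 65.3 ± 12.8 RPKM in NSPs, 66.3 ± 6.44 RPKM at 24 h, 47.4 ± 2.91 RPKM at 72 h and 52.0 ± 5.54 RPKM at 1 week. *Fgfr4*, the remaining kinase receptor for FGFs, was at or below 0.163 CPM in all libraries. These shares are a description with no test. They depend on the length used for each gene: with the longest annotated transcript the *Fgfr3* share at 24 h was 29.7% in place of 34.9%.

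**Figure D3:**
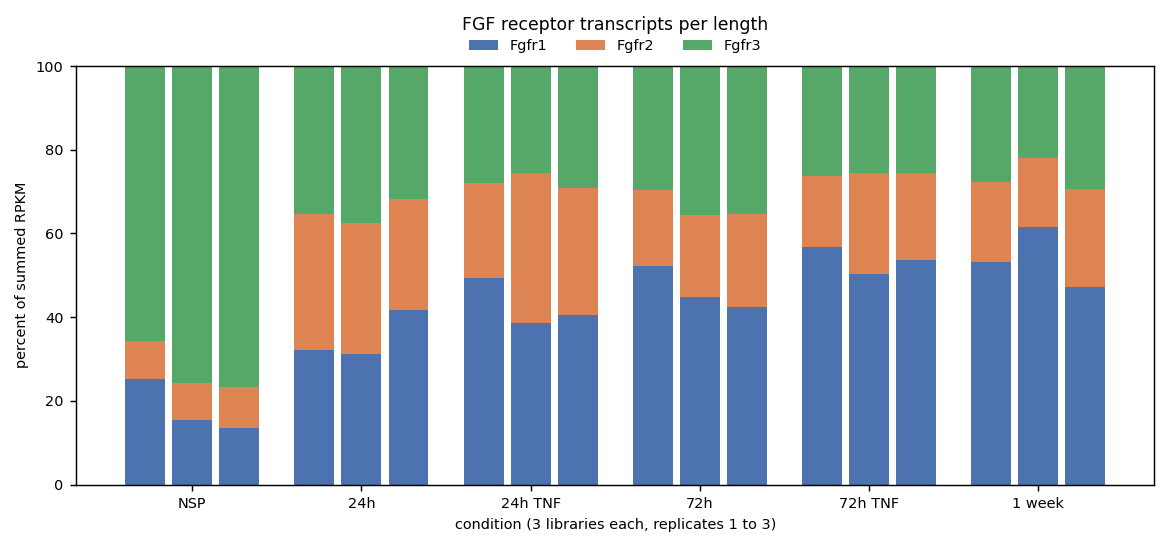
Percent of the summed RPKM of Fgfr1, Fgfr2 and Fgfr3 held by each in every library, stacked to 100. Fgfr3 holds 65.6 to 76.7% in NSPs and at most 37.6% in any differentiated library.

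From 24 h to 72 h without TNF, 6 of the 10 members were called lower and none higher, where 12.6% of all tested genes were lower. The 4 feedback genes among them fell further by 1.61 (*Spry1*), 2.07 (*Spry4*), 2.44 (*Etv4*) and 1.88 (*Etv5*) on the log2 scale, with adjusted p between 6.18e-06 (*Etv4*) and 0.0072 (*Spry1*). *Fgfr2* fell by 1.07 ± 0.20 and *Fgfr3* by 0.54 ± 0.17. The *Fgfr3* call (adjusted p = 0.0228) was lost when any of 24 h replicates 2 and 3 or 72 h replicates 1, 2 and 3 was left out (adjusted p of 0.0573 to 0.0845), and under the replicate block with 72 h replicate 3 unpaired (−0.49 ± 0.18, adjusted p = 0.0829). *Spry2* (−0.31 ± 0.18) and *Dusp6* (−0.32 ± 0.44) were not called, nor were *Egfr* (−0.14 ± 0.13) and *Fgfr1* (−0.08 ± 0.19). Cell type markers fell over the same interval. Of the stem cell and cell cycle markers 4 of 6 were lower and 1 higher (median log2 change −2.27), of the oligodendrocyte lineage 3 of 5 were lower (−1.96), of the neuron markers 2 of 5 (−1.39) and of the astrocyte markers 2 of 8, and their part in the fall of the members was not tested.

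From 72 h to 1 week *Etv5* turned upwards. It measured 24.7, 20.7 and 23.9 CPM at 72 h and 45.9, 44.6 and 48.2 CPM at 1 week, a log2 change of 1.00 ± 0.25 (adjusted p = 0.0219) with no overlap between the groups. It was the 1 member called higher, where 2.68% of all tested genes were, and leaving out 72 h replicate 2 or 3 or any of the 3 libraries of 1 week lost the call (adjusted p of 0.0533 to 0.114). In the same comparison 6 of the 8 astrocyte markers were lower and 0 higher, with a median log2 change of −1.66, and their summed level was 2683 to 3247 CPM at 1 week against 5696 to 8145 CPM at 72 h. The part of this shift in the change of *Etv5* was not tested. *Dusp6* changed by 1.37 ± 0.44 with no overlap and an adjusted p of 0.0734, and *Spry4* by 0.86 ± 0.35 (adjusted p = 0.166). Without the 3 libraries that stood apart, none of which belongs to either group, the spread was estimated on the other 15. *Dusp6*, *Spry4*, *Etv5* and *Spry1* were then all called higher, 4 of 10 members beside 6.81% of all tested genes. *Etv4* differed by 0.19 ± 0.31 and was not called in either fit.

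At 72 h TNF raised 4 of the 6 feedback genes. *Etv4* measured 11.4, 15.3 and 19.3 CPM with TNF against 2.72, 3.44 and 2.53 CPM without, and the log2 difference was 2.40 ± 0.29 (5.27-fold, adjusted p = 2.31e-05). *Spry4* measured 11.4, 9.98 and 11.7 CPM with TNF against 3.25, 2.58 and 2.64 CPM, a difference of 1.97 ± 0.34 (adjusted p = 7.74e-04). *Etv5* measured 58.0, 99.4 and 106 CPM against 24.7, 20.7 and 23.9 CPM, a difference of 1.92 ± 0.26 (adjusted p = 7.77e-05). For these 3 genes every TNF library lay above every untreated library of 72 h and below every NSP library.

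*Dusp6* measured 42.4, 124 and 125 CPM with TNF at 72 h against 29.0, 31.6 and 41.7 CPM without, with replicate 1 just above the untreated libraries and the other two far above them. Its difference of 1.50 ± 0.44 was called (adjusted p = 0.0387), and the call was lost when any of 72 h replicates 1, 2 and 3 or TNF replicates 2 and 3 was left out (adjusted p of 0.0766 to 0.142). The edgeR fit with a replicate block also lost it (adjusted p = 0.0526), as did the block with 72 h replicate 3 unpaired (adjusted p = 0.136). Without the 3 libraries that stood apart the difference was 1.87 ± 0.17 and called. *Spry1* measured 8.11, 13.2 and 14.0 CPM with TNF against 3.78, 4.66 and 6.22 CPM, and *Spry2* 60.5, 68.5 and 68.2 CPM against 37.8, 52.1 and 50.6 CPM. The groups did not overlap for either gene, and with adjusted p of 0.0627 and 0.0895 neither difference (1.25 ± 0.41 and 0.49 ± 0.18) passed the threshold. *Egfr* measured 498, 519 and 499 CPM with TNF against 412, 376 and 372 CPM, a difference that with 0.39 ± 0.13 and an adjusted p of 0.0675 was not called either.

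In all, 4 of the 6 feedback genes and 0 of the 4 receptors were called higher with TNF at 72 h by edgeR, where 4.35% of all tested genes were. At an unadjusted p under 0.05 the counts over both directions were 6 and 2, and DESeq2 called 5 and 1. Without the 3 libraries that stood apart 7 members were higher, all 6 feedback genes and *Egfr*, beside 6.13% of all tested genes, and *Fgfr3* was lower (−0.37 ± 0.12). Markers of cell types moved in the same comparison. Of the 8 astrocyte markers 3 were lower with TNF (*Gfap*, *Aldoc* and *S100b*) and 0 higher, with a median log2 difference of −0.89 and a summed level of 3485 to 4888 CPM against 5696 to 8145 CPM. *Gfap* lay between 217 and 1022 CPM with TNF and between 1855 and 3172 CPM without. The neuron marker *Rbfox3* was lower and *Cspg4*, of the oligodendrocyte lineage, was higher. Without the 3 libraries that stood apart 5 astrocyte markers were lower and 1 higher, and *Rbfox3* was not called. The part of these markers in the TNF difference of the feedback genes was not tested. Leaving out 24 h TNF replicate 1 alone, which is not in the comparison but enters the estimate of the spread, also gave 7 higher.

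At 24 h the 3 TNF libraries did not agree on the feedback genes. In replicate 1 all 6 lay below every untreated 24 h library, and in replicates 2 and 3 all 6 lay above every one. For *Dusp6* the 3 TNF libraries measured 34.6, 127 and 122 CPM against 35.8, 51.0 and 40.9 CPM, and for *Spry1* 7.37, 34.8 and 34.4 CPM against 13.8, 15.9 and 15.5 CPM. In both, replicate 1 alone fell under the untreated range. *Etv5* measured 67.2, 143 and 155 CPM against 75.8, 93.3 and 86.4 CPM. *Etv4* measured 11.8, 24.0 and 29.0 CPM against 13.4, 18.5 and 15.2 CPM. *Spry4* measured 9.20, 23.3 and 23.7 CPM against 11.03, 11.3 and 13.04 CPM, and the split was the same in all of these, and in *Spry2* (51.5, 77.5 and 88.9 CPM against 56.7, 61.6 and 55.8 CPM). The median log2 ratio of the 6 genes to the untreated mean was −0.35 in replicate 1, 0.87 in replicate 2 and 0.95 in replicate 3. At 72 h the same medians were 1.03, 1.84 and 1.96, so that there too replicate 1 was the lowest while all 3 libraries lay above every untreated one for all 6 genes. The share of all tested genes that lay outside the untreated range in each TNF library was not counted.

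**Figure D4:**
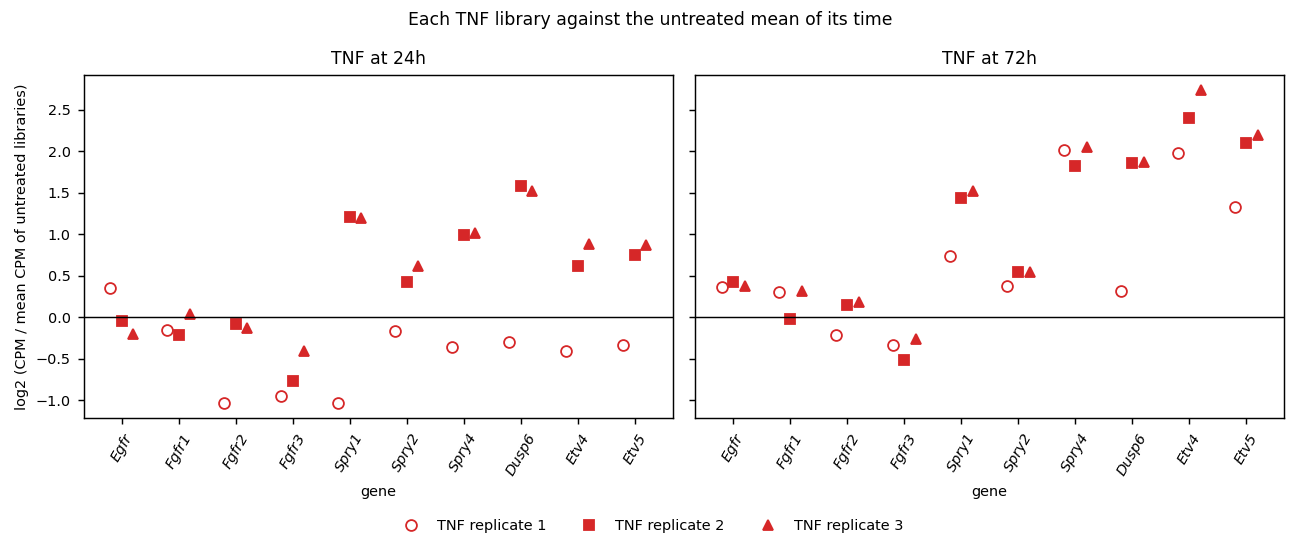
log2 ratio of the CPM in each TNF library to the mean CPM of the 3 untreated libraries of the same time, with replicate 1 as open circles. At 24 h the median over the feedback genes is −0.35 in replicate 1 and 0.87 and 0.95 in replicates 2 and 3, and at 72 h all 3 replicates lie above 0 for the 6 feedback genes.

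Over the 3 libraries 0 of the 6 feedback genes were called at 24 h by edgeR, where 2.18% of all tested genes were higher. At an unadjusted p under 0.05 there were 2 (*Spry4* and *Dusp6*), and DESeq2 called 0. The differences ran from 0.32 ± 0.18 (*Spry2*) to 1.15 ± 0.44 (*Dusp6*). With the 3 libraries that stood apart left out all 6 were called higher, beside 3.26% of all tested genes, with differences from 0.50 ± 0.13 (*Spry2*) to 1.53 ± 0.17 (*Dusp6*). With 24 h TNF replicate 1 alone left out, 4 were called (*Spry1*, *Spry4*, *Dusp6* and *Etv5*). Among the astrocyte and mesenchymal markers *Aldoc* was lower with TNF at 24 h and *Col3a1* was higher, and their part in these differences was not tested. Among the receptors *Fgfr3* was lower with TNF at 24 h, where 1.32% of all tested genes were: it measured 85.5, 96.3 and 124 CPM against 155, 172 and 167 CPM, a difference of −0.69 ± 0.17 (adjusted p = 0.0238) with no overlap. Leaving out any of the untreated libraries or of TNF replicates 1 and 2 raised its adjusted p to between 0.0604 and 0.111, and without the 3 libraries that stood apart it was −0.60 ± 0.12 and called.

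The effect of TNF was compared between the times by the interaction of the 2 differences. For *Etv4* TNF raised the level by 1.94 ± 0.38 more on the log2 scale at 72 h than at 24 h (adjusted p = 0.0266), 1 of 10 members called, where 0.135% of all tested genes were. *Etv5* (1.41 ± 0.35, adjusted p = 0.0901) and *Spry4* (1.30 ± 0.45, adjusted p = 0.282) missed the threshold, and without the 3 libraries that stood apart *Etv4* (1.85 ± 0.26), *Etv5* (1.37 ± 0.16) and *Spry4* (0.98 ± 0.22) were called, beside 0.735% of all tested genes. The *Etv4* call was lost when any untreated library of 24 h, 72 h replicate 2 or 3, or 72 h TNF replicate 2 or 3 was left out (adjusted p of 0.0524 to 0.122). For *Dusp6* the difference was 0.36 ± 0.62 and was not called. Of 8 astrocyte markers 1 had a lower TNF effect at 72 h than at 24 h and 0 a higher one (median log2 difference −0.92). Of 3 tested genes known to respond to TNF, 2 had a lower effect at 72 h (median −5.23). Their part in the interaction of *Etv4* was not tested.

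Between 24 h and 72 h with TNF *Fgfr2* went from 100.2, 194 and 187 CPM to 83.7, 108 and 110.5 CPM, and the groups overlapped. It fell by 0.67 ± 0.19 on the log2 scale (adjusted p = 0.0274), the 1 member of 10 called lower where 7.93% of all tested genes were. The call was lost without 24 h TNF replicate 2 or 3 or any of the 72 h TNF libraries (adjusted p of 0.0505 to 0.204). Of the feedback genes edgeR called 0, against 2 at an unadjusted p under 0.05 and 1 by DESeq2. The untreated fall of *Etv4* between these times, 2.44, had beside it a difference of −0.50 ± 0.25 under TNF that was not called (adjusted p = 0.213). Leaving out the 3 libraries that stood apart, 5 members were lower (*Fgfr2*, *Spry1*, *Spry4*, *Etv4* and *Etv5*), beside 12.1% of all tested genes, and *Egfr* was higher. Over all 18 libraries the markers called lower in this comparison were 4 of 6 of the stem cell and cell cycle list (median log2 change −2.12), 4 of 5 neuron markers (−1.78), 3 of 8 astrocyte markers and 2 of 5 of the oligodendrocyte lineage, with none higher, and their part was not tested.

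Around the members, the other ErbB receptors rose at 24 h and *Fgfrl1*, an FGF receptor without a kinase domain, did not. Of the 4 tested among *Erbb2*, *Erbb3*, *Erbb4*, *Fgfr4* and *Fgfrl1*, 3 were higher and 0 lower at 24 h against NSPs, and 4 were higher at 72 h. *Fgfrl1* measured 63.3, 73.2 and 68.1 CPM at 24 h against 78.2, 92.9 and 87.4 CPM in NSPs, below every NSP library but not called (adjusted p = 0.0940), and was higher than in NSPs at 72 h. Without the libraries that stood apart it was called lower at 24 h (−0.42 ± 0.12), so that the counts were 3 and 1 at 24 h and 4 and 0 at 72 h. *Erbb4*, a neuregulin receptor, went from 259 ± 73.4 to 493 ± 38.2 CPM at 24 h. Of 12 tested ligands of the EGF and FGF families 4 were higher and 3 lower at 24 h, and 5 and 4 at 72 h. At 24 h these were 33.3% and 25.0%, near the 27.2% and 25.5% of all tested genes. At 72 h they were 41.7% and 33.3%, beside 28.1% and 27.2%. *Hbegf*, a ligand of the EGF receptor, stood at 15.2 ± 3.87 CPM in NSPs and rose to 71.1 ± 10.4 CPM by 24 h. *Nrg1*, the neuregulin, was at 1.48 ± 0.970 CPM in NSPs and rose to 15.3 ± 1.17 CPM at 24 h, 36.9 ± 12.1 CPM at 72 h and 116 ± 16.6 CPM at 1 week. It was also the 1 ligand called with TNF, with 56.0 ± 18.4 CPM at 24 h and 187 ± 53.5 CPM at 72 h (log2 differences of 1.87 ± 0.29 and 2.34 ± 0.29, adjusted p = 8.72e-04 and 3.38e-05). With the 3 libraries that stood apart left out, TNF raised 2 of 13 ligands at each time and lowered 1, at 72 h. Of all tested genes TNF raised 2.18% at 24 h and 4.35% at 72 h, and 3.26% and 6.13% in the fit without these libraries.

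The kinases and adaptors between receptor and ERK were called about as often as all tested genes. Of 19 tested, 6 were higher and 5 lower at 24 h against NSPs (31.6% and 26.3%, beside 27.2% and 25.5% of all tested genes) and 5 and 5 at 72 h (26.3% each, beside 28.1% and 27.2%), and edgeR called 0 with TNF at either time, as did DESeq2, with 1 at an unadjusted p under 0.05 at 24 h and 0 at 72 h. *Braf*, the RAF kinase, rose from 80.4 ± 7.84 to 189.6 ± 18.5 CPM at 24 h and *Nras* fell from 241 ± 4.73 to 163 ± 8.89 CPM. The other inhibitors of the pathway went mostly the way of the Sprouty genes. Of 15 tested, 9 were lower and 1 higher at 24 h, 10 and 1 at 72 h and 9 and 0 at 1 week. At 72 h that was 66.7% lower, beside 27.2% of all tested genes. *Lrig1*, which lowers ErbB receptors at the membrane, went from 656 ± 25.5 CPM before differentiation to 315 ± 12.5, 205 ± 31.4 and 116 ± 12.9 CPM at the 3 times, and *Il17rd*, an inhibitor of FGF signalling, from 28.9 ± 4.80 to 3.45 ± 0.897 CPM at 1 week. With TNF at 72 h 6 of the 15 were higher and 0 lower, where 4.35% of all tested genes were higher. Among them were *Dusp4*, a nuclear ERK phosphatase (6.20 ± 1.29 against 2.47 ± 0.561 CPM), and *Spred2* (32.7 ± 8.50 against 15.4 ± 4.97 CPM). At 24 h 1 was higher with TNF, *Spred1* (262 ± 32.4 against 176 ± 8.18 CPM), where 2.18% of all tested genes were. The counts with TNF without the 3 libraries that stood apart were 5 higher and 1 lower of 16 at 72 h and 1 higher at 24 h. In that fit 6.13% of all tested genes were higher at 72 h and 3.26% at 24 h.

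Of 13 other tested genes that ERK is known to induce, 7 were lower and 1 higher at 24 h against NSPs, 4 and 2 at 72 h and 8 and 0 at 1 week. The lower shares were 53.8%, 30.8% and 61.5%, of which that of 72 h was near the 27.2% of all tested genes. *Ccnd1*, the cyclin of the G1 phase, fell from 441 ± 199 to 25.8 ± 3.27 CPM at 24 h, NSP replicate 1 being the highest library with 671 CPM. *Myc* fell from 76.6 ± 29.0 to 13.2 ± 1.81 CPM. TNF at 24 h raised 4 and lowered 0 of them, and at 72 h 5 were higher and 1 lower, where 2.18% and 4.35% of all tested genes were higher. The fit without the libraries that stood apart gave 5 higher and 0 lower at 24 h, and 5 and 2 at 72 h. In it 3.26% and 6.13% of all tested genes were higher. *Junb*, a gene of the AP-1 family, was at 50.2 ± 6.86 against 9.36 ± 2.44 CPM at 24 h. *Ccnd1* was higher with TNF at 72 h (28.0 ± 9.39 against 10.997 ± 2.11 CPM). Of 11 other receptor tyrosine kinases tested, 6 were higher and 3 lower at 24 h (54.5% and 27.3%, beside 27.2% and 25.5% of all tested genes), and *Met*, the receptor of hepatocyte growth factor, rose from 1.82 ± 0.903 to 18.5 ± 0.898 CPM. Its level with TNF at 24 h spread from 54.1 to 246 CPM, the highest being replicate 1.

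**Figure D5:**
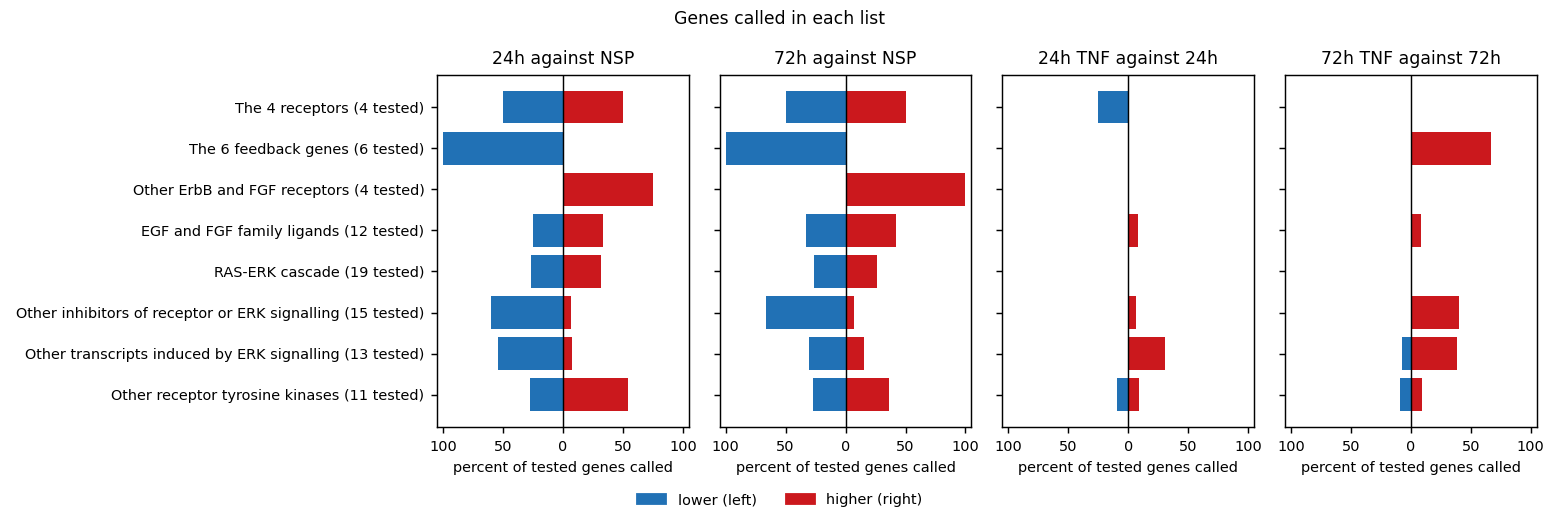
Percent of the tested genes of each list called higher (right) or lower (left) in 4 comparisons. The 6 feedback genes are all lower at 24 h and 72 h against NSPs, 9 and 10 of 15 other inhibitors are lower there, and 4 feedback genes and 6 other inhibitors are higher with TNF at 72 h.

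Genes with the most similar course were sought over all 18 libraries for the 3 members with the largest change, as the smallest root mean square difference of log2 CPM after centring, among 16436 genes outside the list. For *Etv4* they were *Upp1* (0.41), *Olig2* (0.58) and *Fbn2* (0.58), and its nearest member was *Spry4* at 0.49. For *Spry4* they were *Esrrb* (0.39), *Hells* (0.40) and *Jag1* (0.43), with *Spry1* at 0.41. For *Spry1* they were *Gm43820* (0.35), *Cdc7* (0.45) and *Esrrb* (0.45), and *Etv5*, at 0.41, was nearer to *Spry1* than all but 1 of the 16436 genes. This closeness did not hold for all members. The outside genes nearer than the nearest member numbered 3 for *Etv5*, 17 for *Dusp6* and 511 for *Spry2*. For the receptors they numbered from 1209 (*Fgfr3*) to 6453 (*Fgfr1*). The libraries share conditions and the same shift of medium, so these values describe likeness in this series alone.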

How the data were processed

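Total RNA of 18 libraries was sequenced as 75-base read pairs after rRNA depletion. The deposited table holds raw counts of reads per gene. Per the labels the authors used FastQC, Trim Galore, STAR, SAMtools and featureCounts with mm10. Versions, annotation release, strand setting and the handling of reads with several matches are not given in the sources used here. All columns were matched to a sample. The column of 72 h replicate 3 writes the replicate as 4, unlike the title and description, and was matched by its condition and the sample sheet number in the description.

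Genes were filtered with filterByExpr by condition (20067 of 54838 kept) and fitted over all 18 libraries with edgeR 4.0.16 (TMM, quasi-likelihood F test, R 4.3.3). The code was tested on counts simulated for the NSP and 24 h libraries only, with the same dispersion for every gene. That does not test a spread shared over all conditions. Calls are at a Benjamini-Hochberg adjusted p under 0.05 over all tested genes. SEs are the log2 change divided by the square root of F. CPM use TMM-scaled totals, and RPKM divide them by the summed exon length in GENCODE M21. Library totals were 12509693 to 22549627 counts (median 16794798). Alternatives were DESeq2 1.42.0, RLE scaling, other filters, only the groups compared, a replicate block and leaving out each library. Leaving out the 3 libraries that stood apart, the filter of at least 5 counts in total and the block with 72 h replicate 3 unpaired were chosen after seeing the data.

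Replicate numbers came from the titles. Numbers were taken to pair libraries where the deviations of all 3 same-numbered pairs correlated above 0.1. That held between 24 h and 72 h with TNF (0.26 to 0.29) and not between 72 h and NSPs, where they were 0.053 to 0.22, nor in the other comparisons. Where it held the blocked fit made the same call, *Fgfr2*. The members and the gene lists were chosen with earlier results of these data known. From each list up to 4 genes a comparison could be named, those with the largest called change whose groups did not overlap and whose mean reached 1 CPM, and markers where they check a label. The genes most alike are printed for the 3 members with the largest change between conditions. For the others only the number of genes nearer than the nearest member is given. One marker gene is not reported here by name or value, and it stays in the counts of its list.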

Additional observations from a re-analysis of the deposited data

Results flagged for a closer look

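The effect of TNF on *Etv4* differed between the times by a test of the difference itself: it was 1.94 ± 0.38 (SE) larger on the log2 scale at 72 h than at 24 h (edgeR interaction term, adjusted p = 0.0266). The effect was 0.45 ± 0.25 at 24 h, where it was not called and the gene was higher in 2 of 3 libraries (log2 ratios to the untreated mean of −0.42, 0.61 and 0.88), and 2.40 ± 0.29 at 72 h, where the gene was higher in 3 of 3 libraries. Without the 3 libraries that stood apart the difference was 1.85 ± 0.26 (adjusted p = 8.37e-04), and the effect at 24 h was 0.73 ± 0.16 and called (adjusted p = 0.0108). The call was lost in 7 of the fits that left out 1 library (adjusted p of 0.0524 to 0.122), with only the groups compared (adjusted p = 0.0898) and with the replicate block that left 72 h replicate 3 unpaired (adjusted p = 0.0659). Groups of 3 were not tested for single outlying libraries.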

How the results depend on the processing

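No member with a call changed direction under any alternative, and all 10 members were called against NSPs at 24 h whichever library was left out. Leaving out 1 library gave 9 to 10 members called in each of the other 4 comparisons with NSPs, 5 to 6 between 72 h and 24 h, 0 to 2 between 1 week and 72 h, 0 to 6 between 72 h and 24 h with TNF, 0 to 4 for TNF at 24 h, 3 to 7 for TNF at 72 h and 0 to 2 for the interaction. Between 1 week and 72 h, where 1 member was called, 3 were called with no filter on low counts, 3 with only the groups compared, 4 without the 3 libraries that stood apart, and 0 with the block that left 72 h replicate 3 unpaired or with a log2 change of at least 1 required. Between 72 h and 24 h with TNF, also 1, DESeq2 called 2, no filter 4, the 15 other libraries 6, and only the groups compared or a change of at least 1 gave 0. For TNF at 24 h, also 1, no filter gave 5, leaving out the 3 libraries 7 and a change of at least 1 gave 0, and for TNF at 72 h leaving them out gave 8 in place of 4. For the interaction, also 1, DESeq2 called 2, no filter 3, leaving out the 3 libraries 3, and only the groups compared or the unpaired block 0. The cause of these changes was not tested. RLE scaling and a minimum of 5 counts summed over libraries changed 0 of the 110 tests of a member. The replicate block, in which most groups share only a number, changed 1 call: *Dusp6* with TNF at 72 h (1.47, adjusted p = 0.0526), which left 3 members called there. The block with 72 h replicate 3 unpaired lost 4 calls, those of *Fgfr3* from 24 h to 72 h, *Etv5* from 72 h to 1 week, *Dusp6* with TNF at 72 h and *Etv4* in the interaction (adjusted p of 0.0829, 0.107, 0.136 and 0.0659).

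Without TMM factors the level of *Egfr* at 72 h with TNF was 528 CPM and that of *Etv4* in NSPs 98.5 CPM, and the other 58 levels moved by less than 1 SD. With the longest transcript as length the *Fgfr2* share was 12.1% in NSPs, 35.6% at 24 h, 23.9% at 72 h, 24.4% at 72 h with TNF and 23.4% at 1 week. The *Fgfr3* share was 29.7% at 24 h, 23.3% at 24 h with TNF, 29.1% at 72 h and 22.1% at 72 h with TNF. Counting error was not small for the weakest members: at 72 h it was 14.7% for *Etv4* (36 to 56 counts) and 15.02% for *Spry4* (42 to 48 counts), beside CVs between libraries of 16.4% and 13.2%. It was above the CV in 2 of the 60 levels of a member in a condition.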
